A study of Mus musculus with 12 samples.

Results

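TRIM proteins (tripartite motif proteins) form one of the largest families of RING-type ubiquitin ligases in mammals. The family was taken here as every protein-coding row of the deposited table whose gene name is Trim followed by a digit. This rule found 68 genes among 21821 protein-coding rows and 55322 rows in all. No measured value entered the rule. TRIM proteins named otherwise, such as Pml and Mefv, fell outside it and are described after the members.

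The study sequenced RNA of conventional dendritic cells (cDCs) sorted from mouse spleen. The sample titles give 4 groups of 3: the cDC1 groups L-cDC1 and M-cDC1, and the cDC2 groups L-cDC2 and M-cDC2. The labels do not spell out L and M, and the series title speaks of cDCs of lymphoid origin. All 12 libraries carry the same genotype label, an Il7r-cre allele with a Rosa26-lsl-tdTomato reporter (a red protein switched on by Cre), while the growth protocol describes wild-type C57BL/6J mice aged 7 to 8 weeks kept under specific pathogen-free conditions. No agent is named for any group, and whether the reporter was used to sort a given group is not in the labels. Il7r-cre marks cells by the past activity of the Il7r promoter, so a group sorted on such a reporter would hold the cells in which it had recombined. The labels tie no library to an animal of its own, and the p-values rest on the spread between libraries, which may be technical.

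In a TRIM protein an N-terminal RING domain recruits a ubiquitin-loaded E2 enzyme, B-box domains and a coiled coil follow it and let the protein form dimers and larger assemblies, and a variable C-terminal part binds the target. Members with a C-terminal PRY-SPRY domain include many restriction factors and regulators of antiviral signalling, and a number of them are induced by type I interferon. cDC1 are the cDCs that take up dead cells and present their antigens on MHC class I, and cDC2 mainly present antigen to CD4+ T cells. Some members, Trim14 and Trim44 among them, lack the RING domain, so the family name does not make every member a ligase. In the gene ontology column of the deposited table, 36 of the 68 members carry a term that names ubiquitin, 54 carry zinc ion binding, 20 carry innate immune response and 6 carry defense response to virus.

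Values are FPKM as the authors deposited them, which are fragments scaled by gene length and by the library's reads, so levels of different genes are set beside each other per length. The libraries held 15879864 to 24498235 reads over genes, recovered from the deposited FPKM and gene lengths, and 10394 to 11570 genes reached 1 FPKM per library. A gene of 1 kb would need 0.122 to 0.189 FPKM to reach 3 reads. Xcr1, the chemokine receptor that defines cDC1, averaged 206 ± 33.0 FPKM in L-cDC1 and 225 ± 24.3 FPKM in M-cDC1, against at most 1.62 FPKM on average in the cDC2 groups. Sirpa, a cDC2 marker, averaged 184 ± 12 FPKM in L-cDC2 and 215 ± 14.5 FPKM in M-cDC2 and at most 0.826 FPKM in the cDC1 groups (SD, n = 3 each), so the subset labels matched their markers. Differences below are between means of log2(FPKM + 1), where the added 1 makes changes of low genes look smaller, and were tested with limma over 12434 genes that reached 1 FPKM in at least 3 of the 12 libraries. A gene is called when its p, adjusted over all genes tested by the Benjamini-Hochberg method, lies below 0.05. Intervals are 95% intervals from the same fit. Fold differences are ratios of group means in FPKM.

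Of the 68 members, 58 were above 0 FPKM in at least 1 library and 10 were listed at 0 in all 12. The genes listed at 0 were Trim31, Trim40, Trim43a, Trim50, Trim55, Trim58, Trim61, Trim63, Trim67 and Trim71. Among them, Trim63 (MuRF1) and Trim55 (MuRF2) are ligases of striated muscle, and Trim71 is a regulator of stem cells and early embryos. The filter kept 36 members, and 30 members reached 1 FPKM in every library. The 32 members left out never exceeded 1.86 FPKM, the highest value of Trim30c.

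Subclasses differed in how many members were expressed. The classes were assigned from general knowledge, and no protein sequence was checked. Of 38 members placed in the PRY-SPRY class, 23 were tested. Of 4 members with a PHD finger and a bromodomain, which act on chromatin, 3 were tested (Trim24, Trim28 and Trim33), and of 8 members with a COS box, a microtubule-binding element, only Trim36 was. Of 5 members with filamin or NHL repeats 2 were tested (Trim3 and Trim32), and so were both transmembrane members (Trim13 and Trim59), the MATH-domain member Trim37 and the ARF-domain member Trim23. Of the other 8 members with no C-terminal class named here, 3 were tested (Trim8, Trim44 and Trim56). Trim80 was left unclassified and was not tested.

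Close to the filter, Trim6 and Trim43b each reached 1 FPKM in 3 libraries and Trim30c in 2. Trim6, a PRY-SPRY ligase, had 0.724, 1.13 and 0.224 FPKM in the L-cDC1 libraries, 0.564, 0.423 and 0.465 FPKM in the M-cDC1 libraries, 0.0858, 0.272 and 0.766 FPKM in those of L-cDC2 and 1.46, 1.39 and 0.485 FPKM in those of M-cDC2. Trim43b was near 0 in all 6 cDC1 libraries, at most 0.0247 FPKM, with 0.0557, 0 and 1.07 FPKM in L-cDC2 and 1.84, 1 and 0.867 FPKM in M-cDC2. Trim30c had 0, 0 and 0 FPKM in the L-cDC1 libraries, 0.259, 0.391 and 0.106 FPKM in the M-cDC1 libraries, 0, 0.267 and 1.03 FPKM in those of L-cDC2 and 0.785, 0.294 and 1.86 FPKM in those of M-cDC2. Trim43b was the one tested member that reached 1 FPKM in cDC2 libraries alone, and no tested member did so in cDC1 libraries alone. Trim43b passed the filter only through its cDC2 libraries, so its difference between subsets follows in part from the filter.

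**Figure D1:**
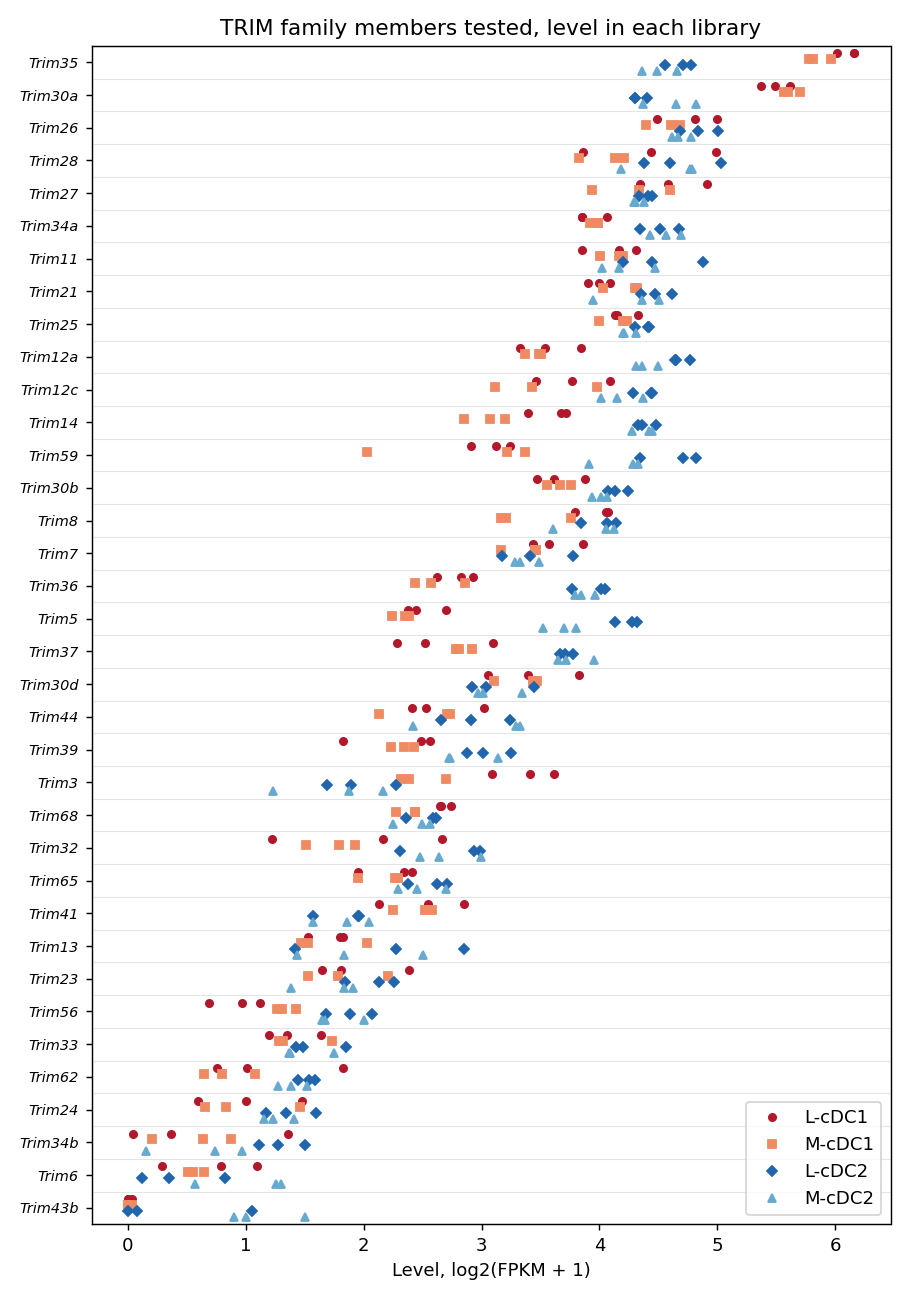
Level of each of the 36 tested TRIM genes in each library, on the log2(FPKM + 1) scale, with 3 points for each of the 4 groups. Trim35 and Trim30a lie highest in the cDC1 groups, at group means of 44.1 to 68.1 FPKM, and the lowest genes are near 0 in most libraries.

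The summed FPKM of all 68 members was 402 ± 19.6 in L-cDC1, 358 ± 16.5 in M-cDC1, 440 ± 16.6 in L-cDC2 and 399 ± 14.6 in M-cDC2 (SD, n = 3 each). Trim35 and Trim30a made up 27.9% ± 1.31 of that sum in L-cDC1 against 9.99% ± 0.767 in L-cDC2, and 29.4% ± 1.95 in M-cDC1 against 11.3% ± 0.542 in M-cDC2. No cDC1 library was below 26.5% and no cDC2 library above 11.8%. Trim35 and Trim30a have the highest means over the 12 libraries, with higher levels in cDC1, so this gap follows in part from their choice. The sums, unlike these shares, change with a factor per library. Factors by the median of ratios over genes were 0.898 to 0.956 in cDC1 libraries and 1.05 to 1.09 in cDC2 libraries. Dividing by them raises the cDC1 sums and lowers the cDC2 sums, so the order of the subsets in the sums is not set. The number of members at 1 FPKM or more was 30 to 34 in L-cDC1 libraries, 31 to 33 in M-cDC1, 34 to 36 in L-cDC2 and 34 to 35 in M-cDC2. Over all genes it was likewise higher in cDC2: 10535 to 10787 in L-cDC1, 10394 to 10549 in M-cDC1, 11465 to 11570 in L-cDC2 and 11111 to 11291 in M-cDC2. The median coefficient of variation over the 36 tested members was 20.2% in L-cDC1, 14.7% in M-cDC1, 14.5% in L-cDC2 and 16.3% in M-cDC2. The order of the levels differed between subsets. In L-cDC1 the leading genes were Trim35, Trim30a, Trim26, Trim27 and Trim28, and in M-cDC1 Trim21 stood in the place of Trim28. In both cDC1 groups all 3 libraries of Trim35 lay above those of Trim30a, and all of Trim30a above those of Trim26. In L-cDC2 Trim26, Trim28, Trim12a, Trim35 and Trim59 led at means of 23.9 to 27.8 FPKM, and in M-cDC2 Trim26, Trim30a, Trim28, Trim34a and Trim35 led at 21.7 to 24.8 FPKM. In both cDC2 groups the libraries of these 5 genes overlapped, so their order there is not set.

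The first question was which TRIM genes differed between cDC1 and cDC2. Trim35, Trim30a, Trim3 and Trim41 were higher in cDC1, and a larger group, led by Trim5, Trim59, Trim36, Trim12a, Trim37 and Trim14, was lower in cDC1, within the L cells and within the M cells alike. In L-cDC1 minus L-cDC2, 16 of 36 members were called (44.4%), 4 higher and 12 lower, where 39.5% of all genes tested were called (12.9% higher and 26.6% lower). In M-cDC1 minus M-cDC2, again 16 of 36 were called, 4 higher and 12 lower, against 38.1% of all genes (12.7% higher and 25.4% lower). The members' share lies near that of all genes in both comparisons. The median log2 difference over the 36 members was -0.34 in L and -0.33 in M, beside -0.19 and -0.18 over all genes tested. With libraries rescaled by the median of ratios, the all-gene medians moved to -0.036 and -0.027, and the members split into 4 higher and 9 lower in L and 4 higher and 8 lower in M; with quantile normalization the all-gene medians were 0.025 and 0.044 and the splits 5 higher and 8 lower in L and 4 higher and 8 lower in M. Of all genes called, 32.7% in L and 33.2% in M were higher as deposited, 48.7% and 48.9% under the median of ratios and 52.6% and 53.4% under quantile normalization.

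The calls in L and in M shared 13 members, 81.2% of either list, 4 higher and 9 lower in both. Among all genes, 3541 were called in both, 72.1% of the L list and 74.8% of the M list. The 2 comparisons share no library, only the estimate of the spread. Trim21, Trim39 and Trim56 were called in L alone and Trim8, Trim32 and Trim43b in M alone, and 17 members in neither. The difference between the 2 comparisons was itself tested for each member and was called for none of them, as given with the interaction below. Groups did not overlap for 17 of 36 members in L, where this held for 48.6% of all genes, and for 19 of 36 in M, where it held for 51.1%. In bulk RNA, fewer cells that express a gene and less RNA per cell cannot be told apart.

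**Figure D2:**
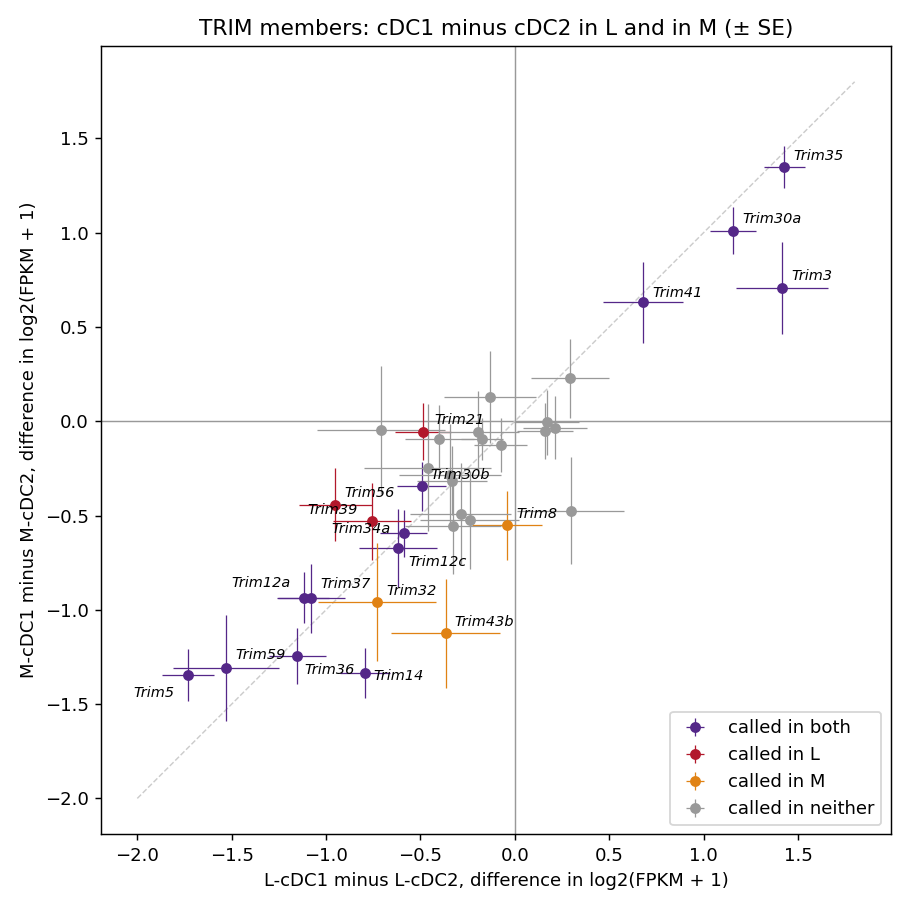
Difference between cDC1 and cDC2 for each tested TRIM gene, L-cDC1 minus L-cDC2 on one axis and M-cDC1 minus M-cDC2 on the other, in log2(FPKM + 1) with bars of 1 SE. The 13 genes called in both lie in the same quadrants, from -1.73 and -1.35 for Trim5 to 1.43 and 1.35 for Trim35.

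Among the genes higher in cDC1, Trim35 had the highest mean of the whole family in L-cDC1 and in M-cDC1. Trim35 (chr14:66534480-66548873 in the deposited table, for which the sources used here name no mouse build) is a PRY-SPRY ligase reported to act on Irf7, a transcription factor of the interferon response. Trim35 had 63.6, 70.3 and 70.5 FPKM in L-cDC1 against 22.6, 25.1 and 26.5 FPKM in L-cDC2, and 53.9, 55 and 61.4 FPKM in M-cDC1 against 21.5, 24.2 and 19.5 FPKM in M-cDC2. Every cDC1 library lay above every cDC2 library. Trim35 was 2.76-fold higher in L-cDC1 than in L-cDC2 (log2 difference 1.43, SE 0.11, adjusted p = 1.85e-07) and 2.61-fold higher in M-cDC1 than in M-cDC2 (log2 difference 1.35, SE 0.11, adjusted p = 3.41e-07).

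Trim30a (chr7:104058232-104114400) is a mouse PRY-SPRY protein described as a brake on NF-kB signalling through loss of the Tab2 and Tab3 adaptors. Trim30a had 43.8, 48.1 and 40.4 FPKM in L-cDC1 against 18.7, 18.7 and 20.2 FPKM in L-cDC2, and 47.3, 51.1 and 46.4 FPKM in M-cDC1 against 19.6, 24.1 and 27.2 FPKM in M-cDC2. The lowest cDC1 library, at 40.4 FPKM, exceeded the highest cDC2 library, at 27.2 FPKM. The fold was 2.3 in L (log2 difference 1.16, SE 0.12, adjusted p = 4.64e-06) and 2.04 in M (log2 difference 1.01, SE 0.12, adjusted p = 1.74e-05).

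Trim3 (chr7:105253670-105282778) is an NHL-repeat member linked to vesicle transport. Trim3 had 7.5, 9.63 and 11.2 FPKM in L-cDC1 against 2.72, 3.84 and 2.23 FPKM in L-cDC2, and 4.23, 3.98 and 5.47 FPKM in M-cDC1 against 1.35, 3.49 and 2.67 FPKM in M-cDC2. In both comparisons the cDC1 libraries lay above the cDC2 libraries without overlap. Trim3 was 3.23-fold higher in L-cDC1 (log2 difference 1.42, SE 0.24, adjusted p = 0.000396) and 1.82-fold higher in M-cDC1 (log2 difference 0.71, SE 0.24, adjusted p = 0.0347). The M call rests on few libraries. It is lost without any 1 of the 3 M-cDC1 libraries, M-cDC2 replicate 1 or M-cDC2 replicate 3, with adjusted p from 0.0513 to 0.157, and without M-cDC2 replicate 1 the difference is 0.45.

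Trim41 (chr11:48697231-48708180), a PRY-SPRY ligase, had the lowest mean of the 4 in both cDC1 groups. Trim41 had 4.85, 6.19 and 3.38 FPKM in L-cDC1 against 1.97, 2.9 and 2.87 FPKM in L-cDC2, and 4.74, 3.76 and 4.99 FPKM in M-cDC1 against 3.12, 1.97 and 2.62 FPKM in M-cDC2. The libraries did not overlap in either comparison, though by a small margin in L. Trim41 was 1.86-fold higher in L-cDC1 (log2 difference 0.68, SE 0.21, adjusted p = 0.0214) and 1.75-fold higher in M-cDC1 (log2 difference 0.63, SE 0.21, adjusted p = 0.0317). The L call is lost without L-cDC1 replicate 1 or 2 or L-cDC2 replicate 1 (adjusted p from 0.0529 to 0.0932), and the M call without M-cDC1 replicate 1 or 3 or M-cDC2 replicate 2 or 3 (adjusted p from 0.0664 to 0.12).

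**Figure D3:**
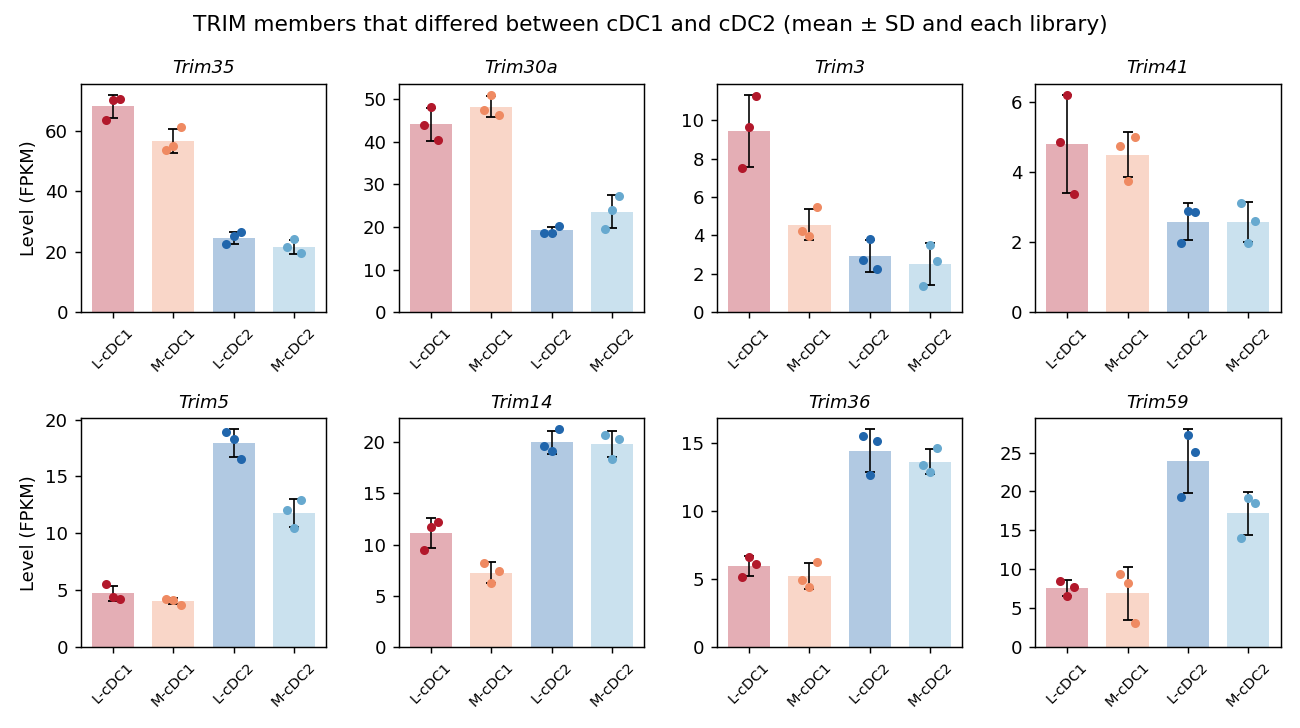
FPKM of Trim35, Trim30a, Trim3, Trim41, Trim5, Trim14, Trim36 and Trim59 in the 4 groups; bars are means, error bars SD and points the 3 libraries. Trim35, Trim30a, Trim3 and Trim41 stand higher in the cDC1 groups and the other 4 genes higher in the cDC2 groups.

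Several members known to be induced by type I interferon, nearly all placed in the PRY-SPRY class, were among the genes lower in cDC1. Of 14 members of that list, chosen from general knowledge, 13 were tested. In L-cDC1 against L-cDC2, 8 were lower and 1 (Trim30a) was higher, with a median of -0.59; in M-cDC1 against M-cDC2, 6 were lower and Trim30a again higher, with a median of -0.35. Over all genes 26.6% were called lower and 12.9% higher in L, 25.4% lower and 12.7% higher in M, and the medians were -0.19 and -0.18. These counts are as deposited. Under either rescaling the calls of Trim12c and Trim30b were lost in L and in M, and that of Trim21 in L. Trim5, Trim12a, Trim14 and Trim34a stayed lower in both, and Trim56 in L. The medians of this list were not computed under the rescalings.

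Trim5 (chr7:103912593-103937301) is a relative of the primate protein that blocks incoming retroviral capsids. Trim5 had 5.5, 4.43 and 4.2 FPKM in L-cDC1 against 18.9, 18.3 and 16.5 FPKM in L-cDC2, and 4.24, 4.11 and 3.73 FPKM in M-cDC1 against 12, 10.5 and 12.9 FPKM in M-cDC2. No cDC1 library reached 6 FPKM and no cDC2 library was below 10. Trim5 was 3.8-fold lower in L-cDC1 (log2 difference -1.73, SE 0.14, adjusted p = 2.57e-07) and 2.93-fold lower in M-cDC1 (log2 difference -1.35, SE 0.14, adjusted p = 3.3e-06). Its neighbour Trim12a, a mouse relative of Trim5, had 9, 10.6 and 13.4 FPKM in L-cDC1 against 24, 26.3 and 23.9 FPKM in L-cDC2, and 10.4, 10.2 and 9.33 FPKM in M-cDC1 against 21.6, 18.8 and 19.6 FPKM in M-cDC2. These groups were also apart, and Trim12a was 2.25-fold lower in L-cDC1 (adjusted p = 1.81e-05) and 2.01-fold lower in M-cDC1 (adjusted p = 9.39e-05).

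Trim12c, a further Trim5 relative, had 12.6, 16 and 9.99 FPKM in L-cDC1 against 18.5, 20.7 and 20.8 FPKM in L-cDC2, and 14.7, 7.67 and 9.73 FPKM in M-cDC1 against 16.8, 19.7 and 15.1 FPKM in M-cDC2. The groups stood apart, by a narrow margin in M, where 14.7 FPKM in M-cDC1 faced 15.1 FPKM in M-cDC2. The log2 differences were -0.62 in L (adjusted p = 0.0289) and -0.67 in M (adjusted p = 0.02). Both calls for Trim12c depended on single libraries and were lost when libraries were rescaled. The L call ended without L-cDC1 replicate 1 or 3 or L-cDC2 replicate 2 or 3 (adjusted p from 0.0607 to 0.117), and the M call without M-cDC1 replicate 2 or 3 or M-cDC2 replicate 2 (from 0.0586 to 0.0975).

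Trim34a, a PRY-SPRY protein next to Trim5, had 15.8, 13.4 and 13.4 FPKM in L-cDC1 against 21.8, 24.5 and 19.3 FPKM in L-cDC2, and 14.9, 14.1 and 14.9 FPKM in M-cDC1 against 20.5, 22.7 and 24.8 FPKM in M-cDC2. Every cDC1 library was below every cDC2 library, with log2 differences of -0.59 in L (adjusted p = 0.00184) and -0.59 in M (adjusted p = 0.00181). Trim30b, a close relative of Trim30a, had 11.2, 13.7 and 10.1 FPKM in L-cDC1 against 15.8, 16.6 and 17.9 FPKM in L-cDC2, and 11.7, 10.8 and 12.5 FPKM in M-cDC1 against 15.7, 14.3 and 15.2 FPKM in M-cDC2. Its groups did not overlap either, at -0.49 in L (adjusted p = 0.00741) and -0.35 in M (adjusted p = 0.0477). The M call of Trim30b is lost without any 1 of 10 libraries (all but L-cDC1 replicates 2 and 3; adjusted p from 0.0515 to 0.143), and both of its calls are lost when libraries are rescaled.

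Trim14 (chr4:46493781-46536141) has no RING domain and serves as an adaptor in the Mavs and cGAS pathways of nucleic acid sensing. Trim14 had 9.51, 11.8 and 12.2 FPKM in L-cDC1 against 19.6, 19.1 and 21.3 FPKM in L-cDC2, and 8.2, 6.22 and 7.4 FPKM in M-cDC1 against 20.7, 18.3 and 20.4 FPKM in M-cDC2. The libraries did not overlap in either comparison. Trim14 was 1.79-fold lower in L-cDC1 (log2 difference -0.80, SE 0.13, adjusted p = 0.000316) and 2.72-fold lower in M-cDC1 (log2 difference -1.34, SE 0.13, adjusted p = 2.55e-06). Trim14 overlaps other genes, chiefly Nans, a gene of sialic acid synthesis, over 38.0% of its exon bases, and the library kit does not mark strand. Nans stood at 12.1 ± 0.494 FPKM in L-cDC1 against 10.1 ± 0.817 FPKM in L-cDC2, and at 14.2 ± 0.526 FPKM in M-cDC1 against 10.1 ± 1.25 FPKM in M-cDC2. Its log2 differences, 0.24 in L (adjusted p = 0.144) and 0.46 in M (adjusted p = 0.00933), have the opposite sign to those of Trim14.

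Trim21, the cytosolic receptor for antibody-coated particles, had 16, 13.9 and 14.9 FPKM in L-cDC1 against 21.2, 23.5 and 19.4 FPKM in L-cDC2, and 15.4, 18.9 and 18.7 FPKM in M-cDC1 against 21.7, 14.4 and 19.6 FPKM in M-cDC2. The L groups stood apart and the M groups overlapped, with log2 differences of -0.49 in L (adjusted p = 0.0197) and -0.055 in M (adjusted p = 0.813). The L call of Trim21 is lost without L-cDC1 replicate 2 or L-cDC2 replicate 2 (adjusted p from 0.0646 to 0.0767) and under either rescaling, where its M difference turns positive. Trim56, an interferon-induced ligase tied to STING and cGAS, was low throughout, at 0.914 ± 0.287 FPKM in L-cDC1 against 2.69 ± 0.494 FPKM in L-cDC2 and 1.52 ± 0.142 FPKM in M-cDC1 against 2.44 ± 0.484 FPKM in M-cDC2 (SD, n = 3 each). It was called in L (-0.95, adjusted p = 0.0015) and missed the threshold in M (-0.44, adjusted p = 0.0895), where it passed under limma-voom (-0.69, adjusted p = 0.0436) and without the intensity trend (0.0473).

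The remaining interferon-list members missed the threshold in both comparisons. Trim25, the ligase that ubiquitinates RIG-I, averaged 17.4 ± 1.37 FPKM in L-cDC1 against 19.8 ± 0.913 FPKM in L-cDC2 and 16.7 ± 1.52 FPKM in M-cDC1 against 17.9 ± 0.825 FPKM in M-cDC2 (SD, n = 3 each). The 95% intervals of its differences ran from -0.42 to 0.067 in L and from -0.34 to 0.15 in M. Trim26, a PRY-SPRY ligase encoded beside the class I MHC genes, had 27, 21.4 and 31 FPKM in L-cDC1 against 24.6, 31.1 and 27.6 FPKM in L-cDC2, and 23.3, 19.99 and 24.7 FPKM in M-cDC1 against 24.4, 26.4 and 23.4 FPKM in M-cDC2. The groups of Trim26 overlapped in both comparisons, with intervals of -0.38 to 0.23 in L and -0.43 to 0.18 in M. Trim30d and Trim34b, the other 2, had adjusted p of 0.286 and 0.112 in L and 0.426 and 0.937 in M.

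Outside the interferon list, the genes lower in cDC1 came from several subclasses. Trim59, a transmembrane member, had 8.47, 6.52 and 7.73 FPKM in L-cDC1 against 19.3, 27.3 and 25.1 FPKM in L-cDC2, and 9.34, 8.26 and 3.07 FPKM in M-cDC1 against 14, 19.1 and 18.5 FPKM in M-cDC2. The groups did not overlap, although M-cDC1 replicate 3, at 3.07 FPKM, lay below the other 2 libraries of its group. Trim59 was 3.15-fold lower in L-cDC1 (log2 difference -1.53, SE 0.28, adjusted p = 0.000665) and 2.5-fold lower in M-cDC1 (log2 difference -1.31, SE 0.28, adjusted p = 0.00228).

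Trim36, a COS-box ligase associated with microtubules, had 5.15, 6.61 and 6.09 FPKM in L-cDC1 against 15.5, 12.6 and 15.1 FPKM in L-cDC2, and 4.95, 4.4 and 6.26 FPKM in M-cDC1 against 13.3, 12.9 and 14.6 FPKM in M-cDC2. All 6 cDC1 libraries were below 7 FPKM and all 6 cDC2 libraries above 12. Its log2 differences were -1.15 in L (adjusted p = 3.28e-05) and -1.25 in M (adjusted p = 1.59e-05). Trim37, a MATH-domain ligase of centrioles and peroxisomes, had 7.57, 3.88 and 4.74 FPKM in L-cDC1 against 12.7, 12.1 and 11.7 FPKM in L-cDC2, and 6.55, 5.87 and 5.99 FPKM in M-cDC1 against 12.2, 14.5 and 11.6 FPKM in M-cDC2. Again no cDC1 library reached the lowest cDC2 library, and the log2 differences were -1.08 in L (adjusted p = 0.000332) and -0.94 in M (adjusted p = 0.00107).

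The calls of Trim39, Trim32 and Trim8 passed in one comparison only. Trim39, a PRY-SPRY ligase linked to apoptosis, had 4.91, 4.59 and 2.54 FPKM in L-cDC1 against 7.05, 8.52 and 6.36 FPKM in L-cDC2, and 4.07, 3.69 and 4.38 FPKM in M-cDC1 against 7.79, 5.66 and 5.59 FPKM in M-cDC2. The groups stood apart in both, with log2 differences of -0.76 in L (adjusted p = 0.00961) and -0.53 in M (adjusted p = 0.0562). Without L-cDC1 replicate 1 or 3 the M difference of Trim39 passes (adjusted p from 0.0208 to 0.0497), as it does under limma-voom (0.0355) and in a fit of the compared groups alone (0.0425), and under quantile normalization the L call is lost.

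Trim32, an NHL-repeat ligase known for its role in muscle, had 3.47, 1.33 and 5.32 FPKM in L-cDC1 against 6.94, 3.95 and 6.65 FPKM in L-cDC2, and 2.47, 1.85 and 2.81 FPKM in M-cDC1 against 5.23, 6.96 and 4.57 FPKM in M-cDC2. The L groups overlapped and the M groups did not; the log2 differences were -0.73 in L (adjusted p = 0.0783) and -0.96 in M (adjusted p = 0.0265). The M call of Trim32 is lost without M-cDC1 replicate 1 or 2 or M-cDC2 replicate 1 or 2 (adjusted p from 0.0529 to 0.0974) or when libraries are rescaled, and the L difference passes without L-cDC1 replicate 3 or L-cDC2 replicate 2 (from 0.0149 to 0.0445). Trim8, a ligase of cytokine and NF-kB signalling, had 12.8, 15.8 and 15.6 FPKM in L-cDC1 against 16.6, 15.7 and 13.3 FPKM in L-cDC2, and 12.6, 8.22 and 7.98 FPKM in M-cDC1 against 11.2, 15.7 and 16.5 FPKM in M-cDC2. Its groups overlapped in both comparisons, since M-cDC1 replicate 1 exceeded M-cDC2 replicate 1, and the differences were -0.04 in L (adjusted p = 0.884) and -0.55 in M (adjusted p = 0.0302). The M call of Trim8 is lost without M-cDC1 replicate 2 or 3 or M-cDC2 replicate 2 or 3 (adjusted p from 0.0962 to 0.117) and under either rescaling, where its L difference turns positive. Trim43b, near 0 in all cDC1 libraries, was called in M (-1.12, adjusted p = 0.00751).

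None of the 3 chromatin-associated members was called between subsets. Trim28, the corepressor that KRAB zinc-finger proteins recruit to DNA, had 13.5, 20.7 and 30.8 FPKM in L-cDC1 against 31.8, 23.2 and 19.8 FPKM in L-cDC2, and 16.5, 13.2 and 17.4 FPKM in M-cDC1 against 17.1, 26.3 and 26.5 FPKM in M-cDC2. Its libraries spread widely within L-cDC1 and overlapped between the subsets in both comparisons, with intervals of -0.80 to 0.32 in L and -1.08 to 0.036 in M. Trim24 and Trim33, its relatives, had group means of 1.04 to 2.03 FPKM and differences from -0.34 to -0.055. Trim27, a PRY-SPRY ligase of endosomal traffic, had 22.9, 19.3 and 29.1 FPKM in L-cDC1 against 20.3, 20.8 and 19.2 FPKM in L-cDC2, and 19.1, 14.3 and 23.2 FPKM in M-cDC1 against 19.7, 18.7 and 18.6 FPKM in M-cDC2. The cDC1 libraries of Trim27 spread on both sides of the cDC2 libraries, with intervals of -0.15 to 0.57 in L and -0.40 to 0.33 in M. Trim44, which has a zinc finger of the kind found in ubiquitin proteases, the ARF-domain ligase Trim23 and Trim65, a ligase of Mda5, also missed the threshold, with differences between -0.49 and 0.13.

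A run of 10 members, all placed in the PRY-SPRY class here, lies side by side on chr7:103868000-104157056, a stretch of 289 kb. Their order is Trim6, Trim34a, Trim5, Trim12a, Trim34b, Trim12c, Trim30b, Trim30c, Trim30a and Trim30d. In all, 30 of the 68 members lay in 8 runs with gaps under 500 kb, and no other run held more than 1 called member. The subsets differed in opposite directions within this stretch. Trim34a, Trim5, Trim12a, Trim12c and Trim30b were lower in cDC1 in L and in M, Trim30a was higher, and its neighbour Trim30d was not called, at 10.005 ± 2.99 FPKM in L-cDC1 against 7.88 ± 1.77 FPKM in L-cDC2 and 9.15 ± 1.36 FPKM in M-cDC1 against 7.68 ± 1.26 FPKM in M-cDC2 (SD, n = 3 each). The ratio of Trim30a to Trim30b within a library, which a constant factor per library does not change, was 3.80 ± 0.254 in L-cDC1 against 1.15 ± 0.032 in L-cDC2, and 4.17 ± 0.531 in M-cDC1 against 1.57 ± 0.287 in M-cDC2. The ratio of Trim30a to Trim5 was 9.47 ± 1.45 in L-cDC1 against 1.08 ± 0.126 in L-cDC2, and 12 ± 0.724 in M-cDC1 against 2.01 ± 0.341 in M-cDC2. Both ratios were higher in every cDC1 library than in any cDC2 library. These ratios were chosen after the differences of the genes were known and are given as descriptions.

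**Figure D4:**
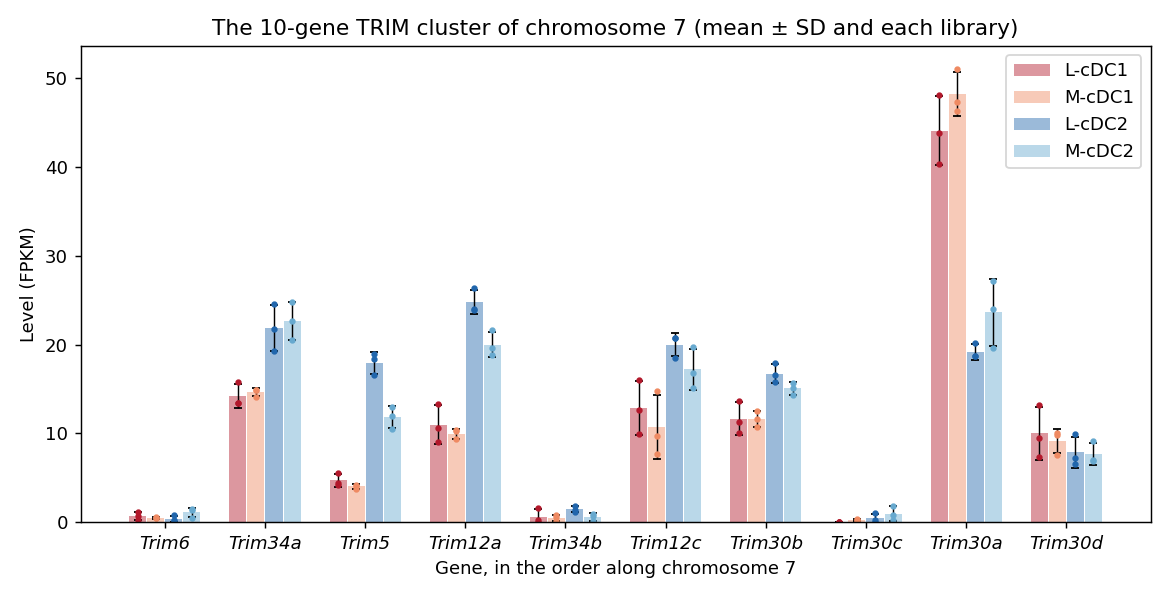
FPKM of the 10 neighbouring TRIM genes on chromosome 7 in the order of the chromosome, with bars for group means and error bars of 1 SD over 3 libraries. Trim30a is the one gene of the row called higher in cDC1, with bars in L-cDC1 and M-cDC1 at 44.1 and 48.3 FPKM against 19.2 and 23.6 FPKM in L-cDC2 and M-cDC2.

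Close copies limit what can be said of single genes here. Of all stretches of 50 bases in a gene's transcripts (GENCODE M21), 59.7% of those of Trim34a and 56.8% of those of Trim34b occur in another gene, mostly each other. The share was 36.6% for Trim5 and 33.7% for Trim12c, mostly between these 2 genes, 33.9% for Trim14, mostly Nans, and 47.7% for Trim43b. It was 10.5% for Trim12a, 5.98% for Trim30a and 7.49% for Trim30d. Whether reads that fit several genes were counted is not given in the sources used here, so the split between Trim34a and Trim34b and between Trim5 and Trim12c is uncertain. Trim3, Trim8, Trim28, Trim32, Trim37 and Trim41 shared no such stretch, and 16 of the 36 tested members shared under 1%.

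Within this run, Trim30a and Trim30d carry related promoters, and so do Trim5 and Trim12c. They are shown because Trim30a was called and Trim30d was not, while Trim5 and Trim12c were both called lower in cDC1. The search was for GAAA, any 2 bases and GAAA again, the core of the interferon-stimulated response element, on both strands in the 250 bases before each RefSeq start (build GRCm38.p6). RefSeq promoters were found for 53 of the 68 members, 27 of them tested. No promoter was found for Trim35, Trim3 or Trim14, among others. Genes with the motif were Trim5, Trim12c, Trim26, Trim30a (in 1 of its 2 promoters) and Trim30d. They make up 18.5% of the 27 tested members with a promoter. The motif was in none of the 26 untested ones and in 3.46% of 27025 genes. The matches within each related pair are near copies, so the members' share does not count independent promoters. The other members of the run, Trim6, Trim34a, Trim12a, Trim34b, Trim30b and Trim30c, had no match. In each window of 80 bases below, read along the gene's own strand, the motif stands on the opposite strand and is in capitals.
Trim30a: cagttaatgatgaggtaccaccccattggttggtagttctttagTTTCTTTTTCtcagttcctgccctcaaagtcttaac
Trim30d: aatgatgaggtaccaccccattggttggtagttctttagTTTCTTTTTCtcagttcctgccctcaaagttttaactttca
Trim5: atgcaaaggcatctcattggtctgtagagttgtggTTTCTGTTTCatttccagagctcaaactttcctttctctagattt
Trim12c: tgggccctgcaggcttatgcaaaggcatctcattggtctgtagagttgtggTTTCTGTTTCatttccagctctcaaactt
Trim26: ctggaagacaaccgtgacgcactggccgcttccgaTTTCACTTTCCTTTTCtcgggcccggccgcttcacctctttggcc
The windows lie at chr7:104465194-104465273, chr7:104507850-104507929, chr7:104288111-104288190 and chr7:104353350-104353429 on the minus strand and at chr17:36836951-36837030 on the plus strand, where 2 matches overlap; these are positions of GRCm38.p6 and are not to be set beside those of the deposited table. The motif ends 27 bases before the start in Trim30a, 32 in Trim30d, 40 in Trim5 and 20 in Trim12c. Set on the motif without gaps, the promoters of Trim30a and Trim30d were 92.2% identical over 245 bases and 98.6% over the 71 bases around it. Those of Trim5 and Trim12c were 46.1% identical over 230 bases and 96.9% over the 64 bases around it. Across the pairs, identity was 36.7% over 237 bases for Trim30a and Trim5, and 33.6% over 238 bases for Trim30d and Trim12c. Trim30a, called higher in cDC1, and Trim30d, not called, thus share the motif and most of the bases around it. Whether the differences of these 2 genes differ was not tested, and their ratio within a library was 4.59 ± 0.942 in L-cDC1 against 2.5 ± 0.415 in L-cDC2, and 5.35 ± 0.797 in M-cDC1 against 3.09 ± 0.377 in M-cDC2. A match describes letters and shows no binding.

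The next question was which TRIM genes differed between L and M cells of one subset. None was called. In L-cDC1 minus M-cDC1, 0 of 36 members were called by limma, where 0.394% of all genes were, and 4 had an unadjusted p below 0.05, a share of 11.1% beside 10.3% of all genes. In L-cDC2 minus M-cDC2, 0 of 36 were called, where 1.83% of all genes were, and 5 had an unadjusted p below 0.05, 13.9% beside 10.2%. With limma-voom on the recovered reads the counts of called members were 0 and 1, the 1 being Trim5. Libraries did not overlap for 6 of 36 members in cDC1, where this held for 13.9% of all genes, and for 5 of 36 in cDC2, where it held for 16.9%.

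In cDC1 the smallest adjusted p was that of Trim14, 0.114. Trim14 had 9.51, 11.8 and 12.2 FPKM in L-cDC1 against 8.2, 6.22 and 7.4 FPKM in M-cDC1, all 3 L libraries above all 3 M libraries, with a log2 difference of 0.55 and an interval of 0.27 to 0.84. Trim3 averaged 9.46 ± 1.88 FPKM in L-cDC1 and 4.56 ± 0.8 FPKM in M-cDC1 (SD, n = 3 each), again without overlap, at 0.90 with an interval of 0.38 to 1.43 (limma adjusted p = 0.159). Trim8 averaged 14.8 ± 1.67 FPKM in L-cDC1 and 9.59 ± 2.58 FPKM in M-cDC1, at 0.60 (limma adjusted p = 0.237). Trim35, the gene of highest level in both groups, was at 0.26 with an interval of 0.023 to 0.50 (limma adjusted p = 0.434). Trim56 and Trim68 also did not overlap, Trim56 at -0.41 and Trim68 at 0.30, neither called.

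In cDC2 the smallest adjusted p was that of Trim5, 0.0606. Trim5 had 18.9, 18.3 and 16.5 FPKM in L-cDC2 against 12, 10.5 and 12.9 FPKM in M-cDC2, with every L library above every M library and a log2 difference of 0.57 (interval 0.27 to 0.86). It passed the threshold under limma-voom (adjusted p = 0.0457) and without L-cDC1 replicate 1, which enters only through the shared spread (0.0497). Trim12a averaged 24.8 ± 1.35 FPKM in L-cDC2 and 20.002 ± 1.45 FPKM in M-cDC2, Trim59 23.9 ± 4.11 FPKM in L-cDC2 and 17.2 ± 2.77 FPKM in M-cDC2, and Trim34b and Trim30b likewise did not overlap, none of them called. Trim43b (-0.76, interval -1.38 to -0.14), Trim6 (-0.61, interval -1.23 to -0.0016) and Trim30a lay the other way, with an unadjusted p below 0.05 and none called, Trim30a at 19.2 ± 0.858 FPKM in L-cDC2 and 23.6 ± 3.79 FPKM in M-cDC2, with an interval of -0.54 to -0.012.

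The intervals say what size of difference in log2(FPKM + 1) these libraries leave possible. For members near or below 1 FPKM the added 1 shrinks this difference, so the intervals do not bound their fold changes. Over the alternative settings, the L-cDC2 minus M-cDC2 difference ran from -3.85 to -0.57 for Trim43b and from -1.99 to -0.46 for Trim6. The median width of the intervals was 0.41 to either side on the log2 scale. In cDC1 the interval lay within 1 log2 unit of 0 for 35 of 36 members, the exception being Trim3, and in cDC2 for 32 of 36, the exceptions being Trim6, Trim34b, Trim43b and Trim59. A p that misses the threshold does not show equal expression within these bounds.

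**Figure D5:**
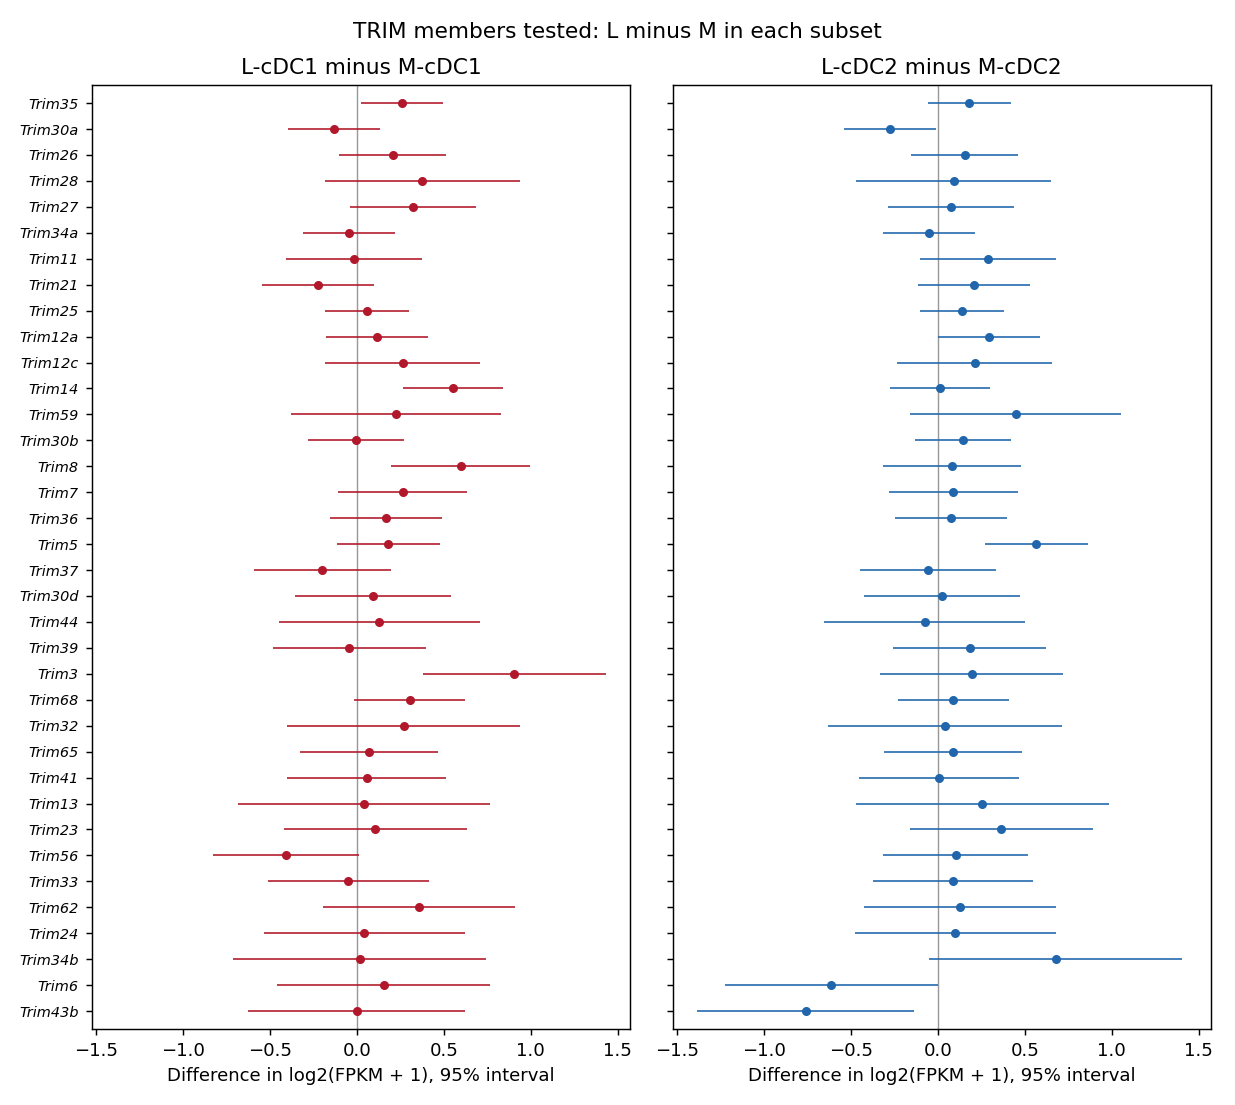
L minus M difference of each tested TRIM gene in cDC1 and in cDC2, in log2(FPKM + 1), with 95% intervals. Point estimates run from -0.41 to 0.90 in cDC1 and from -0.76 to 0.68 in cDC2, and none was called.

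Whether the L and M cells differed by unequal amounts in the 2 subsets was tested with the interaction, which also tests whether the cDC1 to cDC2 difference itself differed between L and M. It was called by limma for 0 of 36 members, where 0.298% of all genes were called. An unadjusted p below 0.05 was found for 1 member, Trim14, where 8.53% of all genes had one, and limma-voom called 0. For Trim14 the interaction was 0.54 (interval 0.14 to 0.95, limma adjusted p = 0.411). The interval lay within 1 log2 unit of 0 for 23 of 36 members, with the same limit for members near or below 1 FPKM. The members called between subsets in L alone or in M alone are therefore not shown to differ between L and M.

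Markers of B cells and of T and NK cells moved with the L groups. The summed FPKM of 10 B cell markers ranged from 50.2 to 105 in L-cDC1 against 11.3 to 16.7 in M-cDC1, and from 168 to 361 in L-cDC2 against 82.5 to 112 in M-cDC2, where Pax5 was at 0 in all M libraries. The sum of 10 T and NK cell markers ranged from 11.1 to 18.1 in L-cDC1 against 0.137 to 0.326 in M-cDC1, and from 35 to 98.5 in L-cDC2 against 0.759 to 1.17 in M-cDC2. Cd3g was at 0 in both M groups, and Cd28 was at 0 in both M groups and in L-cDC1. Of 8 B cell markers tested, 6 were called higher in L in each subset, and of 6 T and NK cell markers 3 in cDC1 and 5 in cDC2. Between subsets the B cell list was lower in cDC1 for 6 of 8 markers in L and for 4 of 8 in M, where 1 was higher, and the T and NK cell list for 5 of 6 in L and 0 of 6 in M. The sum of 10 monocyte and macrophage markers was 265 to 318 in L-cDC1 against 512 to 540 in L-cDC2, and 253 to 322 in M-cDC1 against 609 to 648 in M-cDC2. Of the 7 tested, 1 was called higher and 4 lower in cDC1 in L, and 2 higher and 5 lower in M. Between L and M, 0 of these 7 were called in cDC1, and 1 was lower in L in cDC2. The 2 erythroid and platelet markers tested were both called higher in cDC1 in L and in M. Between L and M, 1 of 3 plasma cell markers tested was called higher in L in each subset. Of 2 neutrophil markers tested, 1 was lower in L in cDC2. No tested marker of plasmacytoid dendritic cells or of stroma and endothelium was called between L and M. Between subsets, of 4 plasmacytoid dendritic cell markers tested, 1 was higher and 1 lower in cDC1 in L. In M, 3 were higher and 1 lower. In L and in M alike, 1 of 3 plasma cell markers was higher in cDC1. There 1 of 2 neutrophil markers and the 1 stromal and endothelial marker tested were lower. Of 6 cDC1 and 5 cDC2 markers, 1 each was lower in L-cDC2 than in M-cDC2. The part of these markers in the levels of TRIM genes was not tested.

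Genes that work with TRIM proteins were described by lists chosen from general knowledge. Of 4 TRIM proteins with other gene names, 2 were tested and both were called between subsets. Pml, the scaffold of nuclear bodies, was higher in cDC1, at 16.3 ± 1.59 FPKM in L-cDC1 against 6.91 ± 1.42 FPKM in L-cDC2 and 11.6 ± 1.28 FPKM in M-cDC1 against 4.78 ± 1.08 FPKM in M-cDC2 (log2 differences 1.14 and 1.13). Mefv, which encodes the inflammasome sensor pyrin, was lower in cDC1, at -1.08 in L and -1.43 in M. Mefv was also lower in L-cDC2, at 47.2 ± 3.74 FPKM, than in M-cDC2, at 73.3 ± 7.78 FPKM (log2 difference -0.62, limma adjusted p = 0.0273).

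Of 14 tested E1 and E2 enzymes of ubiquitin transfer, 2 were higher and 3 lower in L-cDC1 than in L-cDC2, and 1 was higher and 3 lower in M-cDC1 than in M-cDC2, where 39.5% of all genes were called in L and 38.1% in M. The E2 gene Ube2e2 stood out, at 0.883 ± 0.198 FPKM in L-cDC1 against 40.3 ± 1.39 FPKM in L-cDC2 and 0.436 ± 0.0898 FPKM in M-cDC1 against 37.9 ± 3.62 FPKM in M-cDC2 (log2 differences -4.46 and -4.76). Uba7, the E1 enzyme of the ubiquitin-like protein Isg15, was lower in cDC1, with log2 differences of -1.23 in L and -1.19 in M. Ube2l6, the E2 enzyme of Isg15, was lower in L-cDC2, at 13 ± 1.42 FPKM, than in M-cDC2, at 23.1 ± 2.63 FPKM (limma adjusted p = 0.0302).

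Of 15 tested genes of RNA and DNA sensing, 1 was higher and 7 were lower in cDC1 in each comparison, beside the 12.9% higher and 26.6% lower of all genes in L and 12.7% and 25.4% in M. Ddx58, which encodes RIG-I, a target of Trim25, was at 0.322 ± 0.2 FPKM in L-cDC1 against 17.9 ± 2.38 FPKM in L-cDC2 and at 0.151 ± 0.0948 FPKM in M-cDC1 against 18.6 ± 2.52 FPKM in M-cDC2, a log2 difference of -3.84 in L and -4.08 in M. Sting1 (-1.97 in L and -1.69 in M) and Ifih1, which encodes Mda5 (-1.53 and -1.73), were also lower, and Irf5 was higher (0.65 and 0.55). Irf7, the reported target of Trim35, was not called, at 66.1 ± 5.42 FPKM in L-cDC1 against 53.9 ± 3.45 FPKM in L-cDC2 and 71.1 ± 3.09 FPKM in M-cDC1 against 62.1 ± 9.26 FPKM in M-cDC2 (limma adjusted p = 0.0617 and 0.189). Of 11 tested RING ligases outside the TRIM family, 1 was higher and 5 lower in L, and 1 higher and 6 lower in M, where 39.5% of all genes were called in L and 38.1% in M. Traf2, an adaptor and ligase of TNF receptors, and Birc2, a ligase that works with it, were lower in cDC1, Traf2 at -1.42 in L and -1.56 in M and Birc2 at -1.12 in L and -1.25 in M. Marchf1, the ligase that removes MHC class II from the surface, was higher in cDC1, at 25.9 ± 4.67 FPKM in L-cDC1 against 17.4 ± 0.984 FPKM in L-cDC2 and 25.7 ± 2.69 FPKM in M-cDC1 against 16.7 ± 2.05 FPKM in M-cDC2. No gene of these last 2 lists was called between L and M in either subset.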

How the data were processed

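RNA of mouse spleen cDCs was turned into 12 libraries (SMART-Seq HT for the cDNA, then Nextera XT), per the labels' protocols, by kits that do not mark strand. The values are FPKM in the authors' deposited table. Per the submitters' processing notes, the tools included STAR 2.7.9a, featureCounts 2.0.1, DESeq2 1.20.0 and, for trimming, Trimmomatic 0.39, cutadapt 3.7 and Trim Galore 0.6.7. The build named there is GRCh38, although the table holds mouse gene names; its coordinates are printed as deposited. FPKM and the deposited gene lengths gave reads that were whole within 0.01 read for 100% of the values checked. These were the nonzero values of low count, 12909 to 15918 per library, and higher counts were not checked.

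The deposited FPKM were converted to log2(FPKM + 1), with a pseudocount of 1, and rows that reached 1 FPKM in 3 or more of the 12 libraries were fitted with limma 3.58.1 in R 4.3.3. The fit had 1 mean per group, leaving 8 residual degrees of freedom, and let the prior spread follow intensity. The 5 contrasts of the 4 groups were tested, with Benjamini-Hochberg adjustment over 12434 genes. With 3 libraries against 3, the smallest two-sided p of an exact permutation test of a single gene is 0.1, and none is given. The procedure was also run on simulated counts with known changes in L-cDC1 alone, read in L-cDC1 minus M-cDC1. That simulation held no shift between subsets, so it does not check the contrasts of cDC1 with cDC2.

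Per-library values are given for members called in any contrast with a group mean of at least 5 FPKM, for the 5 members of highest mean and for neighbours of the filter. They are also given for Trim41, which was called with every group mean under 5 FPKM. Others are given by mean, range or count. The members and lists were chosen with earlier results of these data known. Alternatives were 2 other pseudocounts (0.5 and 0.1), 2 other filters (none, and 5 FPKM), 2 rescalings, limma without trend, limma-voom on recovered reads, a replicate block, a fit of the compared groups alone and leaving out each library. Protein sequences were not used here.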

Additional observations from a re-analysis of the deposited data

How the results depend on the processing

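Of 32 calls between subsets, 21 held under each of the 22 alternatives that could test them, 11 were lost under some (Trim12c, Trim21, Trim30b, Trim39 and Trim41 in L; Trim3, Trim8, Trim12c, Trim30b, Trim32 and Trim41 in M) and none changed sign. The count of called members was 16 in L-cDC1 minus L-cDC2 (14 to 17 with 1 library left out, 13 to 16 otherwise) and 16 in M-cDC1 minus M-cDC2 (11 to 18 with 1 library left out, and 10 to 18 otherwise, the 10 without a filter on low values, where more genes enter the adjustment). It stayed 0 in L-cDC1 minus M-cDC1 and in the interaction. In L-cDC2 minus M-cDC2 it was 0, with 0 to 1 when 1 library was left out, and 1 under limma-voom. Over all genes, calls ranged from 14 to 102 around 49 in L-cDC1 minus M-cDC1, from 137 to 240 around 227 in L-cDC2 minus M-cDC2 and from 10 to 38 around 37 in the interaction. Fitting the compared groups alone ended the calls of Trim41 in L and of Trim3, Trim8 and Trim12c in M.

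Sign changes were found for values near 0 that were not called. Trim8 in L was 0.15 under the median of ratios, 0.14 under quantile normalization, 0.051 without L-cDC1 replicate 1 and 0.023 without L-cDC2 replicate 1 (-0.13 to 0.051 with 1 library left out). Trim21 in M was 0.13 and 0.11 under the 2 rescalings, 0.037 without M-cDC1 replicate 1 and 0.061 without M-cDC2 replicate 1 (-0.22 to 0.061 with 1 library left out). The cause was not tested.

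Libraries with the same number correlated in their deviations from the group means at -0.0017 to 0.16 over 12 pairs, with 2 over 0.1. Libraries with different numbers were not set beside them, so these values do not decide whether the numbers mark pairs. The main fit takes no pairs. With the number as a replicate block, 16, 16, 0, 0 and 0 members were called in the 5 contrasts. In M, Trim30b was lost (adjusted p = 0.067) and Trim39 was gained (0.0491).

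With 3 libraries a group, 95% intervals reached 0.41 to either side on the log2 scale for the median member.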
